A study of Mus musculus with 8 samples.

Results

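The IFIT and OAS families are groups of antiviral genes that interferon switches on. Their expression is described here in lung neutrophils of mice with and without Streptococcus pneumoniae pneumonia, for 8 genes: Ifit1, Ifit2, Ifit3, Oas1a, Oas1g, Oas2, Oasl1 and Oasl2. The genes were chosen by symbol, as the rows of the expression table whose RefSeq transcript identifier belongs to that symbol. Each of the 8 had 1 such row, out of 24625 rows and 19836 symbols in all. The arrays compared neutrophils from 4 wild type (WT) mice given S. pneumoniae (SP) with those from 4 WT mice given phosphate-buffered saline (PBS). Either was instilled through the trachea to the left side at 2.3 µl for each g that the mouse weighed. Lungs were taken 24 h later. The mice were 6-12 weeks of age per the labels, while the paper's methods give a narrower range. Neutrophils were drawn from digested lung with magnetic beads and an antibody to Ly6G, so the cells of both groups had passed through digestion and the same beads. Values are log2 expression values, on which a difference of 1 is 2-fold, and 4 arrays per group limit the precision of every comparison. The labels number the samples within a group without saying more, so the p-values measure the spread between these arrays.

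Interferons of type I bind a receptor made of Ifnar1 and Ifnar2, whose kinases Jak1 and Tyk2 phosphorylate Stat2 among others. With Irf9 it becomes part of ISGF3, a transcription factor that binds the interferon-stimulated response element (ISRE) in front of its target genes, the IFIT and OAS genes among them. IFIT proteins bind viral RNA and hinder its translation. OAS enzymes sense double-stranded RNA and make short oligoadenylates as a signal for RNA to be cut, while the OAS-like genes have roles in tuning the interferon response. The genes are classically studied in viral infection, and bacteria induce type I interferon as well.

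Both families lie in gene clusters, and the promoters of several members share ISRE letters. Promoter windows of 300 bases, from 250 before to 50 after the annotated start, were taken from RefSeq (mouse build GRCm38.p6) and searched for GAAANNGAAA, which reads TTTCNNTTTC on the other strand. Of the 8 members, 7 had a window, and Oas2 had none in the table. The letters stood in the windows of 4 of these 7 (Ifit1, Ifit3, Oas1a and Oas1g), always as 2 matches, and in 3.44% of all 32851 windows. Of all windows, 0.225% held 2 or more matches. The windows of Ifit2, of which there were 2, and those of Oasl1 and Oasl2 did not hold these letters. The stretches below are shown because they carry the matches, in capitals, and because near-copies of them recur within each cluster. They are written 5′ to 3′ on the strand of the gene.
Ifit1 (chr19:34640785-34640814, plus strand): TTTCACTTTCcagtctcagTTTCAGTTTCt
Ifit3, distal match (chr19:34583363-34583392, plus strand): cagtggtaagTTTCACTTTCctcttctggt
Ifit3, proximal match (chr19:34583397-34583426, plus strand): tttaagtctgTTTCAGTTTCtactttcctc
Oas1a (chr5:120907526-120907555, minus strand): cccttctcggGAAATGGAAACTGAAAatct
Oas1g (chr5:120887614-120887643, minus strand): tgcccttctcggGAAATGGAAACTGAAAat

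In Oas1a and Oas1g the 2 matches overlap each other by 4 bases, and the 16 capital letters are the same in both genes. In Ifit1 and Ifit3 the matches are apart. They have the same letters in the same order in both genes, TTTCACTTTC and then TTTCAGTTTC. A match is a description of letters and does not show that a factor binds there. A second motif, the gamma-activated site (GAS) that STAT dimers bind, was searched as TTCNNNGAA, which reads alike on both strands. It was present in 8.30% of all windows and in those of 2 members, 241 bases before the start in Ifit2 and 98 before it in Oas1a. Neither match overlapped an ISRE match.

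**Figure D1:**
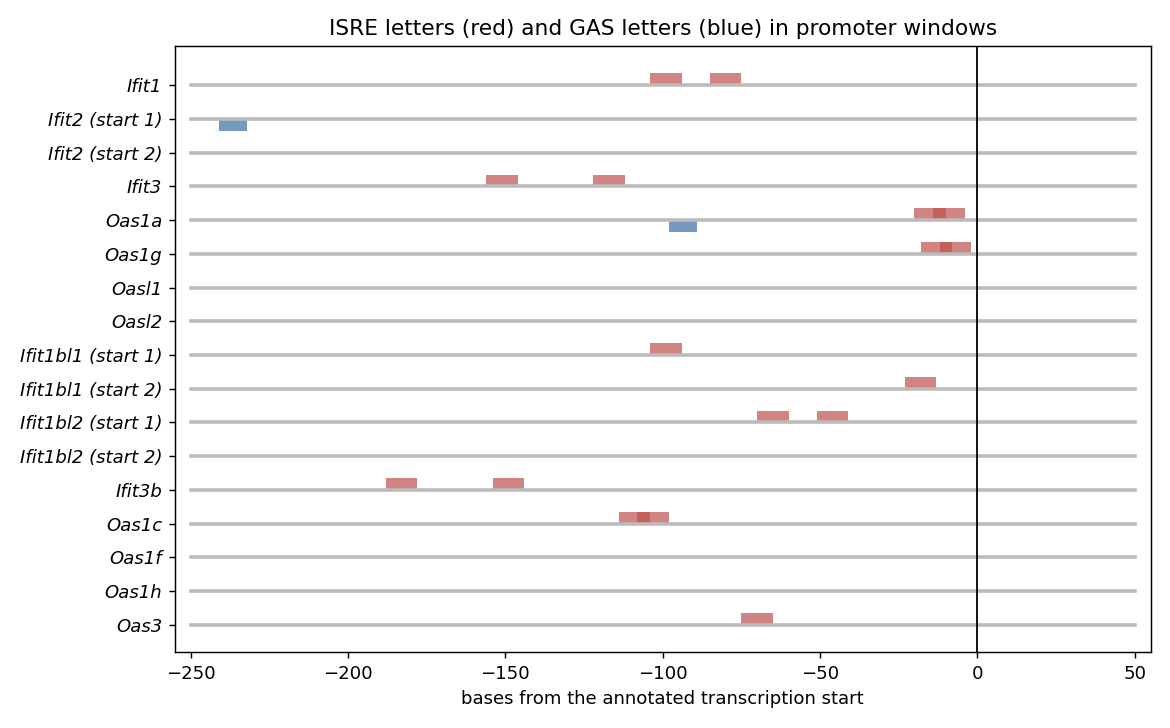
Promoter windows of the members and of other genes of both families, drawn from 250 bases before to 50 after the annotated start (x axis, bases from the start); each grey line is 1 window, red boxes are ISRE letters and blue boxes GAS letters. The ISRE matches of Oas1a and Oas1g lie within 20 bases of the start, those of Ifit1 and Ifit3 between 156 and 76 bases before it.

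The label of neutrophils was checked against marker genes. The neutrophil genes S100a8 (13.20 in PBS and 13.01 in SP) and Retnlg (13.36 and 12.88) were bright in both groups. Of 12 neutrophil rows 2 were higher in SP (Cebpe by 1.79 and Itgam by 0.32), 3 were lower (Mmp8 by 0.76, Mmp9 by 0.59 and Retnlg by 0.47) and 7 were not called. In the paper, the purity of the neutrophils was assessed in samples from mice with pneumonia, and none is given for PBS. The paper also states that Ly6G mRNA was high in all samples. Ly6g had no matched row here. Markers of other cells were present too and moved with the groups. The epithelial genes Scgb1a1 (13.63 in PBS and 13.00 in SP) and Sftpc (13.33 and 12.39) were about as bright in PBS as S100a8 and Retnlg. The endothelial genes Calcrl (12.30 and 10.67) and Cdh5 (11.91 and 10.92) were bright as well. All 8 epithelial and 6 of 7 endothelial marker rows were lower in SP. Of 10 monocyte or macrophage rows 5 were higher, Cd68 among them by 1.32, and the log2 of their summed level ran from 12.17 to 13.12 in PBS and from 13.45 to 14.02 in SP. Of 8 alveolar macrophage rows 5 were lower and Chil3 was higher by 0.97, with summed levels of 12.90 to 13.65 in PBS and 12.44 to 13.13 in SP. Siglech, the defining marker of plasmacytoid dendritic cells, a rich source of interferon, was at 5.32 and 5.27. Of the 7 rows of that list 2 were higher (Bst2 by 2.70, which interferon also induces, and Pacsin1 by 0.32), 2 were lower (Ly6d by 1.17 and Cox6a2 by 0.96) and 3 were not called. All 6 B cell rows were lower, 2 of 5 T cell rows were higher, none of the 6 NK cell rows was called, 1 of 5 eosinophil rows was higher and 1 of 6 fibroblast rows was lower. The part of these cells in the results below was not tested. In bulk RNA, fewer cells of a type and less RNA per cell cannot be told apart.

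All 8 members were higher in SP, by at least 2-fold and with an adjusted p of at most 0.05 (limma, Benjamini-Hochberg over all rows). Over all 24625 rows, 6.37% passed the same criteria in that direction, 17.6% passed them in either direction, and 44.1% were called without the 2-fold limit. In each of the 8 the lowest SP value lay above the highest PBS value, as in 27.2% of all rows, and the groups did not overlap in either direction in 49.0%. In 5 of 15 alternative settings 7 of the 8 reached 2-fold, Oasl2 being the one that did not. The median difference of the members was 2.96 log2 units, against 0.10 over all rows, and their differences ran from 1.02 to 5.61. One PBS array stood apart. PBS replicate 2 had the lowest PBS value in every member, so each difference is also given without it.

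Ifit2, whose product is an antiviral RNA-binding protein also linked to cell death, had the largest difference of the 8. Its values were 6.90, 6.33, 7.14 and 6.63 in PBS replicates 1 to 4 and 12.52, 12.34, 12.35 and 12.24 in SP replicates 1 to 4. The groups were more than 5 log2 units apart, while the PBS values ranged over 0.8 and the SP values over 0.28. The difference was 5.61 (SE 0.17, adjusted p = 5.86e-07, limma), or 5.48 without PBS replicate 2.

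Ifit1 encodes a protein that captures RNA whose cap lacks the methyl marks of host messenger RNA. Its values were 8.88, 8.14, 9.58 and 9.49 in PBS and 12.87, 12.75, 12.93 and 12.74 in SP. The PBS values were spread over more than 1 log2 unit while the SP values were close together. The difference was 3.80 (SE 0.29, adjusted p = 3.56e-05, limma), or 3.50 without PBS replicate 2.

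Ifit3 encodes a partner protein that joins other IFIT proteins in a complex. Its PBS values were 9.90, 9.04, 10.09 and 9.97 and its SP values 13.03, 12.93, 12.99 and 12.89. Apart from PBS replicate 2, the PBS arrays lay within 0.2 of each other. The difference was 3.21 (SE 0.21, 9.26-fold, adjusted p = 1.83e-05, limma), or 2.97 without that array.

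Oas1a encodes an oligoadenylate synthetase. Its values were 8.07, 7.16, 8.91 and 8.50 in PBS and 11.09, 11.05, 11.22 and 10.92 in SP. All SP arrays were more than 2 log2 units above the highest PBS array, PBS replicate 3. The difference was 2.91 (SE 0.33, 7.50-fold, adjusted p = 0.000231, limma), or 2.57 without PBS replicate 2.

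Oas1g, a close relative of Oas1a in the same cluster, showed the same order of the PBS arrays. Its values were 9.37, 8.39, 10.13 and 9.90 in PBS and 11.99, 11.88, 12.07 and 11.75 in SP. The difference was 2.47 (SE 0.34, 5.56-fold, adjusted p = 0.000656, limma), or 2.12 without PBS replicate 2. Oas1a and Oas1g are near-copies, and whether the array's probes keep them apart is not given in the sources used here.

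Oas2 encodes a larger synthetase with repeated OAS units. It stood at 10.59, 10.16, 10.98 and 10.91 in PBS and at 12.10, 12.03, 12.06 and 11.94 in SP. The groups did not overlap, and the difference was smaller than in Oas1a and Oas1g, at 1.37 (SE 0.17, adjusted p = 0.000398, limma), or 1.20 without PBS replicate 2.

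Oasl1 encodes an OAS-like protein that in mice represses translation of Irf7. Its PBS values had the widest spread of the 8 members, at 9.64, 8.09, 10.45 and 10.16. In SP they were 12.54, 12.52, 12.75 and 12.57. The 4 SP arrays were thus within 0.23 of each other and the PBS arrays up to 2.36 apart. The difference was 3.01 (SE 0.45, 8.04-fold, adjusted p = 0.00106, limma), or 2.51 without PBS replicate 2.

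Oasl2, the second OAS-like gene of mice and a neighbor of Oasl1, had the smallest difference. Its values were 11.74, 10.94, 12.13 and 12.14 in PBS and 12.85, 12.89, 12.58 and 12.71 in SP. The lowest SP array stood 0.44 above the highest PBS array. The difference was 1.02 (95% confidence interval 0.44 to 1.60, 2.03-fold, adjusted p = 0.0123, limma). It kept an adjusted p of 0.00361 without PBS replicate 2, but at 0.76 it was then below 2-fold, and it was likewise below 2-fold at 0.80 after another quantile normalization, at 0.87 with array weights, at 0.99 without SP replicate 1 and at 0.97 without SP replicate 2.

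**Figure D2:**
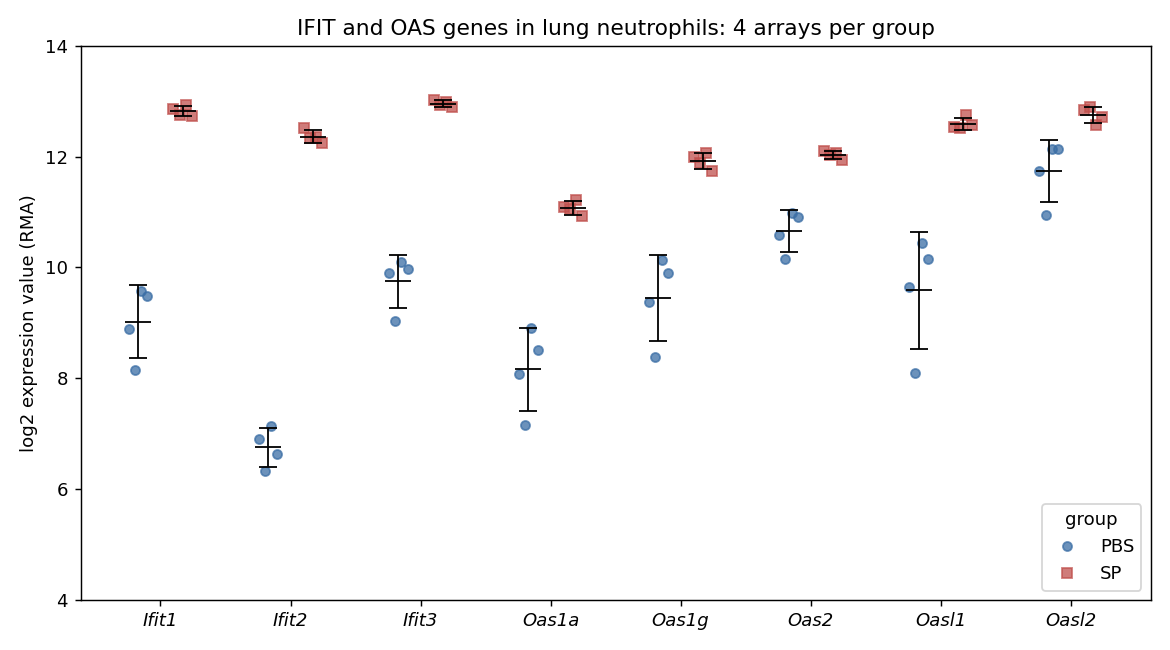
Log2 expression values (y axis, not starting at 0) of the 8 members, with PBS arrays as blue circles and SP arrays as red squares, 4 of each; black bars are the mean ± SD. No SP value falls into the PBS range, the SP arrays lie close together, and the PBS arrays are spread out with replicate 2 lowest.

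The sizes of the differences were compared between members within each array, where an array-wide shift cancels. For each of the 28 pairs the within-array difference of both genes was set between groups by an exact two-sided permutation test over 70 arrangements, whose smallest p is 0.0286, or 0.0333 after adjustment over the 28 pairs. At that smallest value, 24 pairs passed. The order was Ifit2, Ifit1, Ifit3, Oasl1, Oas1a, Oas1g, Oas2 and Oasl2, from the largest rise to the smallest. The members started from unlike levels and ended near the top of the scale. Ifit2 had the lowest PBS mean (6.75, above 55.4% of rows) and Oasl2 the highest (11.74, above 98.0%). The SP means ran from 11.07 to 12.96, above 94.8% to 99.7% of rows. Whether the upper end of the scale held back the rise of the brighter genes was not tested. Ifit2 rose by 1.82 more than Ifit1 (95% interval 1.22 to 2.41), and Ifit1 rose by 0.59 more than Ifit3 (0.25 to 0.93). Oas1a rose by 0.43 more than its near-copy Oas1g, with the narrow interval of 0.32 to 0.54.

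Neighbors in the middle of that order were not told apart. Ifit3 and Oasl1 differed by 0.20 (95% interval -0.53 to 0.93, exact permutation adjusted p = 0.533). Ifit3 and Oas1a differed by 0.30 (-0.11 to 0.72, adjusted p = 0.123 by the exact permutation test), and Oasl1 and Oas1a by 0.10 (-0.32 to 0.52, adjusted p = 0.886 by the exact permutation test). At the low end, Oas2 rose by 0.35 more than Oasl2, with an interval of 0.04 to 0.65 from the spread of the arrays and an exact permutation adjusted p of 0.064. For these 4 pairs the intervals allow differences of up to 0.93 log2 units. The 3 IFIT genes held the top of the order, though Ifit3 was not told apart from Oasl1 or Oas1a, and the OAS-like genes held both the fourth place and the last.

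**Figure D3:**
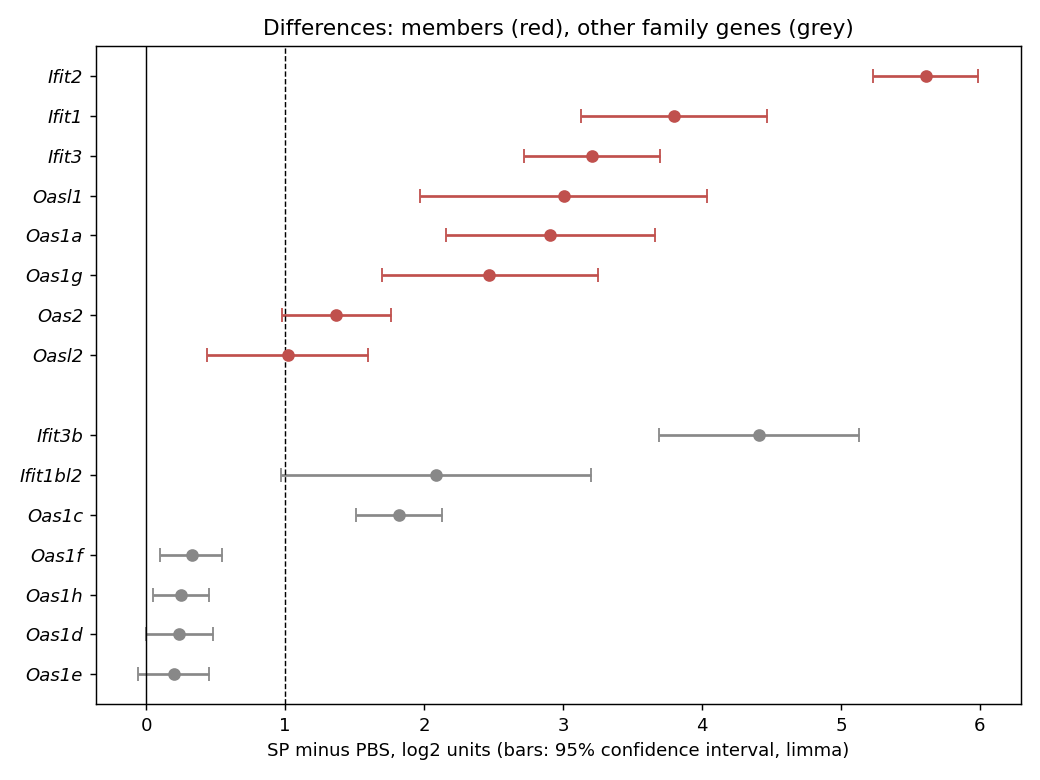
SP minus PBS difference in log2 units (x axis) with its 95% confidence interval from limma, for the 8 members (red) and for 7 other genes of both families (grey); the dashed line marks 2-fold. The members run from 1.02 for Oasl2 to 5.61 for Ifit2, and 4 Oas1 genes lie between 0.20 and 0.33.

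The members varied together among the PBS arrays and little among the SP arrays. The SD ranged from 0.35 to 1.05 in PBS and from 0.06 to 0.14 in SP, and it was the larger in PBS for all 8 members, against 34.3% of all rows. Among the 1288 rows with an SP mean at least that of the lowest member, the share was 68.5%, and among the 408 of these that were called and at least 2-fold higher it was 76.7%. PBS replicate 2 was the lowest PBS array in 8 of 8 members, as in 36.3% of all rows and 58.9% of the 1568 rows called at least 2-fold higher. Its deviation from the PBS mean ran from -1.49 in Oasl1 to -0.42 in Ifit2. PBS replicate 3 was highest in 7 of the 8 members. Without PBS replicate 2, the PBS SD was still above the SP SD in each member, at 0.09 to 0.42.

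PBS replicate 2 also differed from the other PBS arrays in cell markers. It was lowest in 8 of 10 monocyte or macrophage rows, by 0.52 below the PBS mean on average, and in 9 of 12 neutrophil rows, by 0.24. Its endothelial rows were 0.56 above that mean on average and its epithelial rows 0.25 above. In SP, replicate 3 was lowest in 10 of 10 monocyte or macrophage rows and 0.85 below the SP mean there on average. Its neutrophil rows were 0.59 above the SP mean on average, its endothelial rows 0.62 below and its epithelial rows 0.46 below. The members deviated by -0.18 to 0.15 in that array, and their spread was small over all SP arrays. The part of these differences in the member values was not tested.

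**Figure D4:**
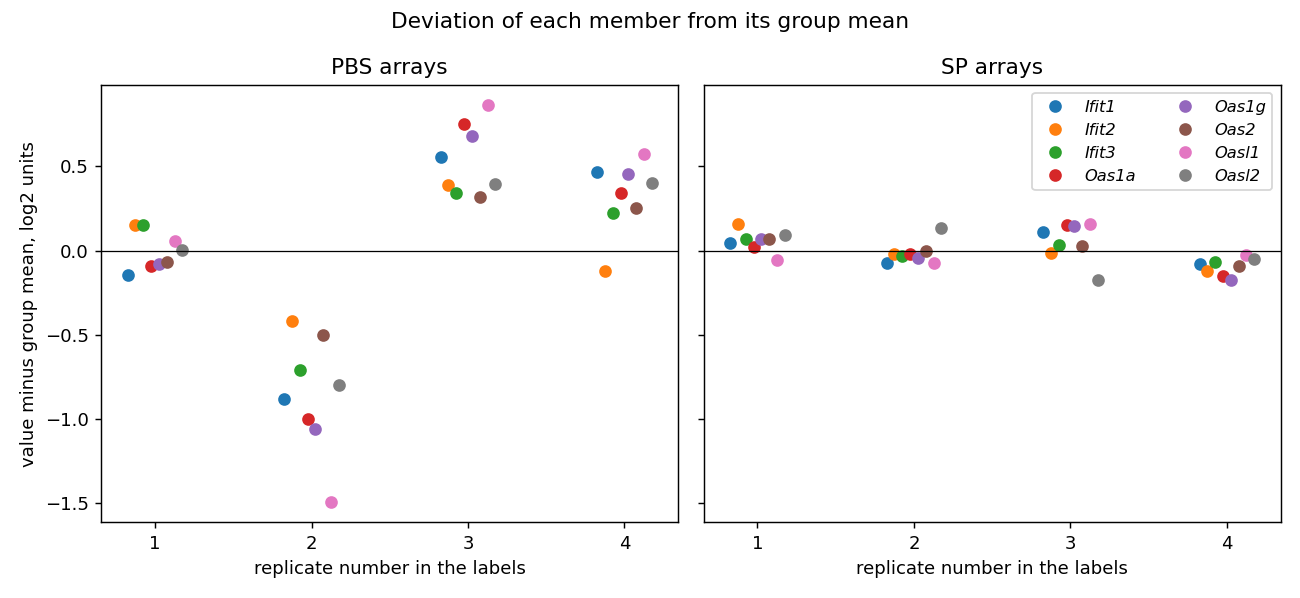
Deviation of each member from the mean of its group (y axis, log2 units) in the 4 PBS arrays (left) and the 4 SP arrays (right), by replicate number; each color is 1 gene. In PBS replicate 2 all 8 members lie at or under -0.42, and in the SP arrays all lie between -0.18 and 0.16.

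Of the 10 further genes of both families that were looked up, 7 had a row, and Ifit1bl1, Oas1b and Oas3 were not matched. Ifit3b, Ifit1bl2 and Oas1c were higher by at least 2-fold, and 4 Oas1 genes of low signal were not. Ifit3b, a near-copy of Ifit3, had PBS values of 7.10, 6.49, 8.09 and 7.43 and SP values of 12.09, 11.66, 11.43 and 11.56. Its difference was 4.41 (SE 0.31, 21.3-fold, adjusted p = 2.51e-05, limma). The ISRE letters of its window stand in the same 2 stretches of 30 bases as those printed for Ifit3, letter for letter, and whether the probes keep both genes apart is not given in the sources used here.

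Ifit1bl2, a gene like Ifit1, lies next to it and is read from the opposite strand. One of its windows takes in the very ISRE matches printed for Ifit1, so both genes share these bases. Its difference was 2.09 (SE 0.49, 4.25-fold, adjusted p = 0.00939, limma), with PBS values of 8.42, 7.05, 9.36 and 9.24 and SP values of 11.02, 10.86, 10.11 and 10.42. PBS replicate 2 was again the lowest, and without it the difference was 1.60.

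Oas1c had 2 overlapping ISRE matches as Oas1a and Oas1g do, but read on the other strand of the gene and 99 to 114 bases before its start.
Oas1c (chr5:120812606-120812635, minus strand): atgggacTTTCAGTTTCCATTTCccgggaa
Its values rose from 6.51, 6.36, 6.77 and 6.81 in PBS to 8.58, 8.46, 8.54 and 8.16 in SP, by 1.82 (SE 0.13, 3.53-fold, adjusted p = 3e-05, limma). Unlike in the members, PBS and SP arrays had a like spread, with SDs of 0.22 and 0.19.

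Oas1d, Oas1e, Oas1f and Oas1h had values between 4.12 and 5.09 in all arrays. Oas1d is known from oocytes. Their differences were 0.24, 0.20, 0.33 and 0.25, and those of Oas1f (adjusted p = 0.0275, limma) and Oas1h (adjusted p = 0.0496, limma) were called. Both calls were lost when PBS replicate 1, 2 or 4 or SP replicate 1 was left out. The rows of 3 Y-linked genes, a guide to background signal if the mice were female, differed by 0.12 to 0.19, and the median row by 0.10. The paper states that female mice were bought to raise colonies and that the mice studied were matched for sex. Over the members and other family genes that had both a row and a window, the 7 with ISRE letters rose by 1.82 to 4.41. All 7 were called at 2-fold, against 6.37% of all rows. They are not separate cases, as Ifit1 and Ifit1bl2 share the same matches and Ifit3 and Ifit3b the same stretches. Of the 5 without these letters, Ifit2, Oasl1 and Oasl2 were called at 2-fold, Ifit2 with the largest rise of 5.61. Oas1f and Oas1h, among the dim rows above, were not. Whether the letters bear on the rise was not tested.

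The genes that flank the clusters were read as well, a choice made after the member values were seen. Next to the Ifit cluster on chromosome 19, Lipa, a lysosomal lipase, was higher by 1.57 (adjusted p = 0.000534, limma), and Slc16a12, a membrane transporter gene on the other side, was lower by 2.92 (adjusted p = 9.37e-06, limma). Next to the Oas cluster on chromosome 5, Rasal1 differed by 0.15 (adjusted p = 0.0908, limma) and Rph3a by 0.34 (adjusted p = 0.0121, limma), both with means of 4.58 to 5.02. Beside Oasl1 and Oasl2, the unnamed gene 4930519G04Rik differed by 0.65, with means of 4.42 and 5.07. The 2-fold rise thus did not extend to both sides of any of the 3 clusters.

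Genes around the members in the pathway were counted from 8 lists of 71 genes, of which 65 had a row. Of these 65, 46 were higher, 4 were lower and 15 were not called, against 21.5% of all rows called higher and 22.6% called lower. At 2-fold or more, 30 were higher and 2 lower, against 6.37% and 11.3% of all rows. The median difference of the 65 was 0.94 and that of all rows 0.10.

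The receptor and ISGF3 genes were higher in 6 of 7. Stat2 was higher by 2.79 (6.93-fold, adjusted p = 1.35e-05, limma), and Irf9 was higher by 1.33. The kinase gene Tyk2 was higher by 0.94 and Jak1 was not called, at 0.29 (95% interval -0.10 to 0.69, adjusted p = 0.187, limma). PBS replicate 2 was the lowest PBS array for Stat2, Irf9 and Jak1 but not for Tyk2.

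Of the other interferon regulatory factors, Irf7, which drives interferon alpha genes and whose translation Oasl1 represses, stood at 9.89, 8.88, 10.59 and 10.65 in PBS and 12.36, 12.40, 12.44 and 12.34 in SP. It showed the low PBS replicate 2 and the narrow SP range seen in the members, with a difference of 2.38 (adjusted p = 0.00101, limma). Irf5 was higher by 2.32, and Irf3, which sensors activate by phosphorylation, was not called at 0.13 (-0.22 to 0.47, adjusted p = 0.489, limma).

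Genes that sense RNA were higher in 6 of 7. Ifih1, the sensor MDA5, was higher by 2.76 and Tlr7, an endosomal receptor for single-stranded RNA, by 2.77. Dhx58, a relative of both cytosolic sensors, was higher by 2.75 and Ddx58, the sensor RIG-I, by 1.62. The ubiquitin ligase gene Trim25 was higher by 0.96 and Tlr3, an endosomal receptor for double-stranded RNA, by 0.50. The call of Tlr3 (adjusted p = 0.037, limma) was lost without any of PBS replicates 3 and 4 and SP replicates 1, 2 and 4. The adaptor gene Mavs, through which the cytosolic sensors signal, had the opposite sign, from 8.99, 8.94, 8.47 and 8.62 in PBS to 7.09, 7.34, 6.44 and 7.85 in SP.

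Abce1, a ribosome recycling factor, was lower by 0.76 (-1.36 to -0.16, adjusted p = 0.0445, limma), a call that was lost when any of PBS replicates 1, 2 and 4 or SP replicates 1 and 2 was left out. Pde12, which breaks down oligoadenylates, was at 0.09 (-0.25 to 0.43).

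Of 5 partner genes of the families with a row, 2 were higher and 2 lower. Eif3c, a subunit of the translation factor that IFIT proteins bind, was slightly lower by 0.31 and Tbk1, a kinase of interferon induction, was higher by 2.54. All 5 negative regulators with a row were higher. Among them Trim30a was higher by 0.81 and Usp18, which blocks the interferon receptor, by 2.50, from 10.08 to 10.53 in PBS to 12.71 to 12.95 in SP. All 15 other antiviral genes with a row were higher, 13 of them by at least 2-fold. The other 2 were Ifitm3, a membrane protein that hinders viral entry, with 0.24, and Samhd1, which depletes nucleotides, with 0.54. Both were already near the top of the scale in PBS, with means of 13.45 and 12.36. Whether this bears on their smaller differences was not tested.

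Interferon ligands had 19 rows of 21 genes, with values from 4.13 to 7.63. Of these 9 were higher, 1 of them (Ifng) by 2-fold, and 10 were not called. Apart from Ifng, no value was above 6.88 (Ifnb1 in SP replicate 3). The other called rows were interferon alpha genes, higher by 0.27 (Ifna13) to 0.71 (Ifna1 and Ifna7). Their SP means ran from 4.81 (Ifna4) to 5.81 (Ifna7). The 3 Y-linked rows used above as a guide to background had values of 4.33 to 4.90 and differences of 0.12 to 0.19. Whether the interferon alpha rows stood above background was not tested. Ifng, the gene of type II interferon, was higher by 1.21 (adjusted p = 0.022, limma), at 6.08, 5.52, 5.78 and 5.34 in PBS and 7.39, 7.63, 6.27 and 6.26 in SP. For 14 of the 19 rows SP replicate 3 was the highest SP array, as in 4 of the 8 members and 41.1% of all rows. It stood out in Ifnb1, the interferon beta gene, at 4.70, 4.39, 6.88 and 5.37 in SP and 4.39, 4.29, 4.49 and 4.28 in PBS, a difference that was not called (0.97, adjusted p = 0.122, limma). Ifna5, an interferon alpha gene with 5.77 in SP and 5.32 in PBS, was higher by 0.45.

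**Figure D5:**
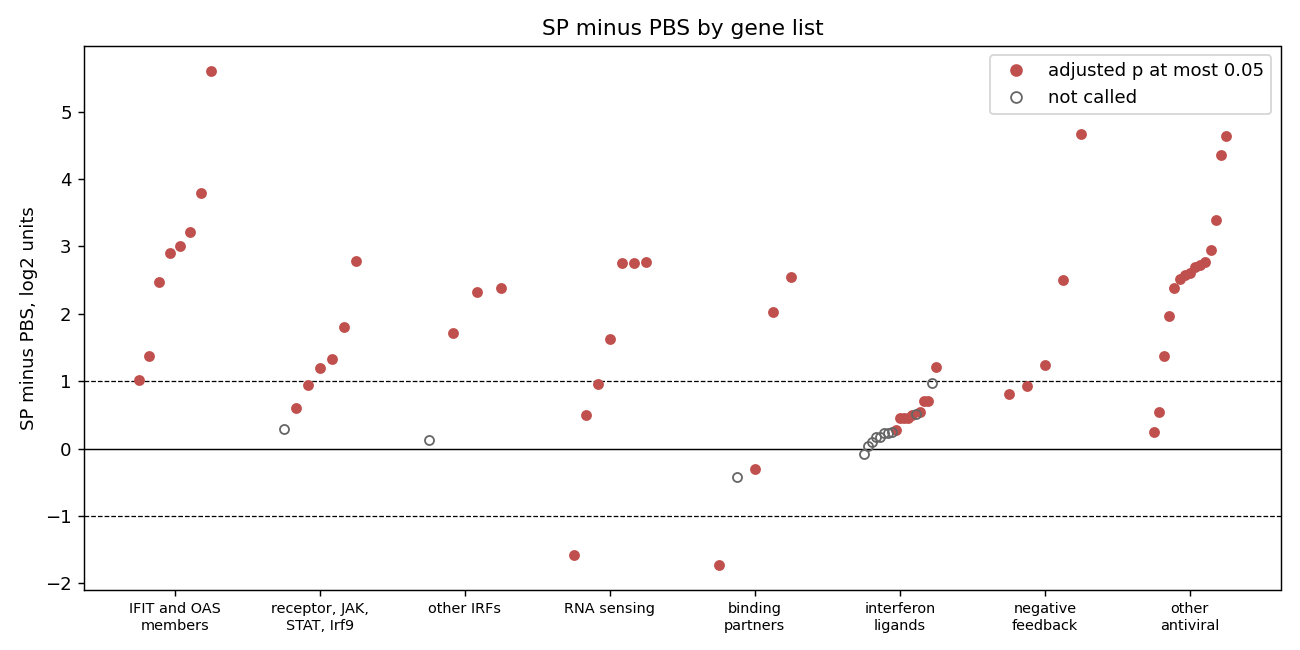
SP minus PBS difference in log2 units (y axis) of each gene, for the 8 members and 7 of the pathway lists; filled red points have an adjusted p of at most 0.05 and open points do not, and dashed lines mark 2-fold in either direction. The 8 members and 30 of the listed genes lie above the upper line as called, while most interferon ligands lie within both lines.

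Genes outside the families were ranked by how closely their row-centered values followed the mean profile of the 8 members over the 8 arrays, as a root mean square distance in log2 units. Ccdc88b was nearest at 0.09, followed by Dhx58 at 0.12, Pfkfb3, a regulator of glycolysis, at 0.13, Ntng2 at 0.14 and Cmpk2, an interferon-induced nucleotide kinase, at 0.15. Ccdc88b was at 7.68, 6.97, 8.29 and 7.87 in PBS and at 10.73, 10.64, 10.64 and 10.43 in SP. Its low PBS replicate 2 and narrow SP range, as in the members, follow from its choice by likeness to their profile.

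The nearest gene was also found for each member alone. It was Batf, a transcription factor gene, for Ifit1 (0.20), F10, the gene of coagulation factor X, for Ifit2 (0.22), and Ube2l6, an enzyme that attaches Isg15 to proteins, for Ifit3 (0.10). For the OAS genes it was Mefv, the gene of pyrin, for Oas1a (0.13), Gadd45b for Oas1g (0.06) and Isg20, an RNA exonuclease, for Oas2 (0.06). It was Rsad2, the antiviral protein viperin, for Oasl1 (0.10) and Nmrk1, a kinase of nicotinamide riboside, for Oasl2 (0.06). Rsad2 was at 10.49, 8.73, 11.16 and 11.12 in PBS and at 13.38, 13.21, 13.41 and 13.29 in SP, a PBS spread of 2.43 like that of Oasl1. Over 8 arrays in 2 groups such a distance reflects mostly the group difference and the PBS order, and the groups were not clustered further.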

How the data were processed

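As the study's methods describe, the authors made the values from signals of Affymetrix arrays by RMA (background correction with adjustment for GC content, quantile normalization, median polish), with probes reassigned to genes. The deposited values are on a log2 scale and relative within an array. Their per-array medians ran from 6.06 to 6.20 in PBS and from 5.78 to 5.91 in SP. The submitters' notes name Affymetrix Expression Console and Partek, versions not given in the sources used here. No value was read from the microRNA arrays of the study.

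Row identifiers were matched to symbols of NCBI RefSeq genes (GRCm38.p6), giving 19915 of 24625 rows a symbol. Rows were tested with limma 3.58.1 (R 4.3.3; lmFit and eBayes, two-sided, no covariates) with Benjamini-Hochberg adjustment over all rows, with thresholds of 0.05 for the adjusted p and 2-fold for the difference. Pairs of members were tested with Python 3.11.15 and scipy 1.17.1. Members and lists were chosen with earlier results of these data known. Named were members, family genes, 4 pathway lists, at most the 2 brightest rows of other lists and the genes nearest in profile. Genes cited outside that rule were chosen after their values were seen. Some genes are counted in lists but their results are not reported here. Scripts were tested on simulated data. Alternatives were the methods' t-test, array weights, the replicate number as a block, a robust prior, arrays centered on their median, another quantile normalization, dim rows left out, and 8 fits that each left out 1 array.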

Additional observations from a re-analysis of the deposited data

Results flagged for a closer look

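Of 72 sets of 4 arrays (members, other family genes and named pathway genes, each in PBS and SP), 6 held an array whose gap to its nearest neighbor, as a share of the range, exceeded Dixon's 95% critical value. Chance alone marks about 1 in 20 such sets. In PBS replicate 2, Irf5 was low at 8.09 (ratio 0.842) and Ifih1 at 8.96 (0.975), as were the dim rows Oas1d at 4.42 (0.837) and Oas1e at 4.45 (0.917). In SP, Oas1d was high at 5.09 in replicate 1 (0.878) and Oas1e low at 4.48 in replicate 4 (0.947). None of the 6 was a member.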

How the results depend on the processing

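All 8 members were higher at an adjusted p of at most 0.05 in each of the 15 alternatives, the highest being 0.0357 for Oasl2 without SP replicate 1. Differences stayed between 3.50 and 4.08 for Ifit1, 5.48 and 5.89 for Ifit2, 2.97 and 3.49 for Ifit3, 2.57 and 3.19 for Oas1a, 2.12 and 2.76 for Oas1g, 1.17 and 1.65 for Oas2, 2.51 and 3.30 for Oasl1 and 0.76 and 1.30 for Oasl2. Pathway genes called lower numbered 2, not 4, with arrays centered on their median and by the methods' t-test, and 2 to 4 when 1 array was left out. Centering the arrays, which adds 0.28 to every difference, called 18255 rows in place of 10860. With that centering or another quantile normalization Irf3 was called higher, and with the centering Jak1 as well. Pde12 turned to -0.12 with array weights and to -0.05 without SP replicate 3, and was between -0.05 and 0.21 whenever 1 array was left out. The causes of these changes were not tested. Same-numbered arrays deviated together with correlations of 0.02, 0.03, 0.35 and -0.27, so the numbers were not taken as pairs. With the replicate block 9842 rows were called, 43 pathway genes were higher, and every member kept its call, whereas Oas1h lost it (adjusted p = 0.0644, limma). No test of 28 pairs was run with an array left out. Quantile normalization hides a change in total RNA, and 4 arrays per group limit what can be told apart.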
